A study of Mus musculus with 10 samples.

Results

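The genes described here build, coat and break down lipid droplets, the bodies in which cells keep triglyceride. They were 3 perilipins (Plin2, Plin4 and Plin5), 2 CIDE genes (Cidec and Cidea), 3 lipases (Pnpla2, Lipe and Mgll) and 2 acyltransferases (Dgat1 and Dgat2). They were matched by symbol: 10 of 10 were found among 45706 genes in the deposited table, and 10 of 10 were among the 12350 genes that had at least 1 CPM (a read count scaled to 1000000 per library) in at least 5 of 10 libraries and were tested. Adipoq, which encodes the fat-cell hormone adiponectin, and Plin1, the perilipin of fat cells, were read in each library as a check for fat tissue.

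The libraries were made from polyadenylated RNA of mouse left ventricle. All mice had TAC, which in heart studies stands for transverse aortic constriction, an operation that narrows the aorta and raises the load on the heart. The 5 osimertinib libraries came from TAC mice given osimertinib, a tyrosine kinase inhibitor of the epidermal growth factor receptor used against lung cancer, and the 5 placebo libraries came from TAC mice whose treatment label reads Vehicle. The labels give no strain, age, sex, dose or duration, and they do not say whether libraries of 1 group came from separate animals, so each p-value measures only the spread between these libraries. The study asked how osimertinib harms the heart.

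Triglyceride is the heart's reserve of fatty acids. The last step of its synthesis is catalysed by the acyltransferases DGAT1 and DGAT2, which are unrelated in sequence. It is broken down in sequence: ATGL, encoded by Pnpla2, removes the first fatty acid, hormone-sensitive lipase, encoded by Lipe, acts on the diglyceride, and monoglyceride lipase, encoded by Mgll, frees the last. ABHD5 activates ATGL and G0S2 inhibits it. Perilipins coat the droplet; perilipin 5 is typical of heart and other oxidative tissues, where it sits between droplets and mitochondria. CIDE proteins bring droplets together so that they grow, and Cidec and Cidea are best known from white and brown fat.

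The libraries held 15863265 to 21309296 reads each. In CPM, mitochondrial genes took 31.7% to 63.4% of the reads, the highest share being that of placebo library 5, which leaves a smaller share of its CPM to nuclear genes. Values are therefore given on 2 scales, deposited CPM and CPM rescaled by a median-ratio factor per library, which was 0.4545 in placebo library 5 and 0.9257 to 1.344 in the others. The median log2 fold change of all tested genes was 0.27 in deposited CPM and 0.01 in rescaled CPM. Atrial transcripts entered 6 libraries: Myl7, the atrial myosin light chain, was at 1 CPM or above in osimertinib libraries 1, 2 and 4 and in placebo libraries 1, 2 and 5, and below 1 CPM in the other four. Summed cardiomyocyte markers were 26236 to 48765 deposited CPM in osimertinib libraries, against 8252 to 30694 in placebo libraries. In rescaled CPM they were 26762 to 46681 in osimertinib libraries, against 13170 to 32452 in placebo libraries. Fewer cells of a type cannot be told apart from less RNA per cell in tissue RNA.

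Upstream sequence is shown for Pnpla2 and Plin5, which were each called higher on 1 of the scales, and for Plin4 and Plin2, droplet coats that were called on neither. RefSeq promoters of build GRCm38.p6 were used for 7 of the 10 members, with 11 starts. Dgat1 and Dgat2 were not matched, and Cidea was left out, so the motif counts do not cover these genes. Each line gives the 250 bases before the start, 5′ to 3′ on the gene's strand (for Plin5, the first of its 2 starts). Capitals mark AGGTCA, the half-site of PPAR and other nuclear receptors, searched on both strands.
Pnpla2, chr7:141454938-141455187, plus strand: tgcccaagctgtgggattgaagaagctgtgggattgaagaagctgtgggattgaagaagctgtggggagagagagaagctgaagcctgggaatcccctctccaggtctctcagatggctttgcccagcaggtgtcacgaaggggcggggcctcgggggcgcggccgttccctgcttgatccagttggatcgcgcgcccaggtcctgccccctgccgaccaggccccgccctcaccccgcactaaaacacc
Plin5, chr17:56117549-56117798, minus strand: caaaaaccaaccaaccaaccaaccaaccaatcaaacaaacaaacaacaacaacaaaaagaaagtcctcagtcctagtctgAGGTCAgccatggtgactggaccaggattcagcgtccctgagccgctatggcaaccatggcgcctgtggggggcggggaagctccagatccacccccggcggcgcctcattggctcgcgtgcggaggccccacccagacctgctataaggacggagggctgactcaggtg
Plin4, chr17:56109783-56110032, minus strand: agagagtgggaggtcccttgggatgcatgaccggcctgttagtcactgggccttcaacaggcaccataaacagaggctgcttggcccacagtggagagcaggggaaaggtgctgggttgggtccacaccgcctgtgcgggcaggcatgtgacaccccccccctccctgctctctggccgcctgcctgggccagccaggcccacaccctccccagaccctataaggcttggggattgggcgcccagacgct
Plin2, chr4:86670060-86670309, minus strand: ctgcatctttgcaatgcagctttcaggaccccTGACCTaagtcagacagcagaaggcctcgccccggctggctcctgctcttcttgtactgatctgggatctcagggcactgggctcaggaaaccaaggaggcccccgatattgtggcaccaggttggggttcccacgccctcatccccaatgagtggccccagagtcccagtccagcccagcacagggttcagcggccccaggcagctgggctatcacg
AGGTCA stood in the window of Plin2, at position -218 from the start and on the strand opposite the gene, and in that of Plin5, at position -170 and on the gene's own strand. Among 32851 RefSeq promoters of the same length, 14% held it. The direct repeat of that half-site with 1 base of any kind between the copies, searched on both strands and so overlapping the half-site search, was in none of the members' windows and in 0.0335% of all. The E-box CACGTG, searched on both strands, was in 1 window each of Mgll and Lipe and in 6.02% of all.

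In deposited CPM, 3 of the 10 genes rose with osimertinib (Plin5, Cidec and Dgat2) and 0 fell (0 also at an unadjusted p under 0.05), beside 6.74% of all tested genes called, 6.62% higher and 0.13% lower (limma, Benjamini-Hochberg adjusted p under 0.05). In rescaled CPM, 1 rose (Pnpla2) and 2 fell (Lipe and Mgll), beside 20.8% of all tested genes called, 10.4% higher and 10.5% lower. No gene was called on both scales at these settings, though Pnpla2 was also called in deposited CPM in 10 of 20 alternatives, among them 2 CPM added before taking logs (limma adjusted p = 0.0469). The median log2 fold change over the 10 genes was 0.54 in deposited CPM and 0.26 in rescaled CPM, with 7 and 6 of them above 0. The first lipase, the second acyltransferase and perilipin 5 had positive fold changes on both scales, and the later lipases and Dgat1 had negative ones.

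**Figure D1:**
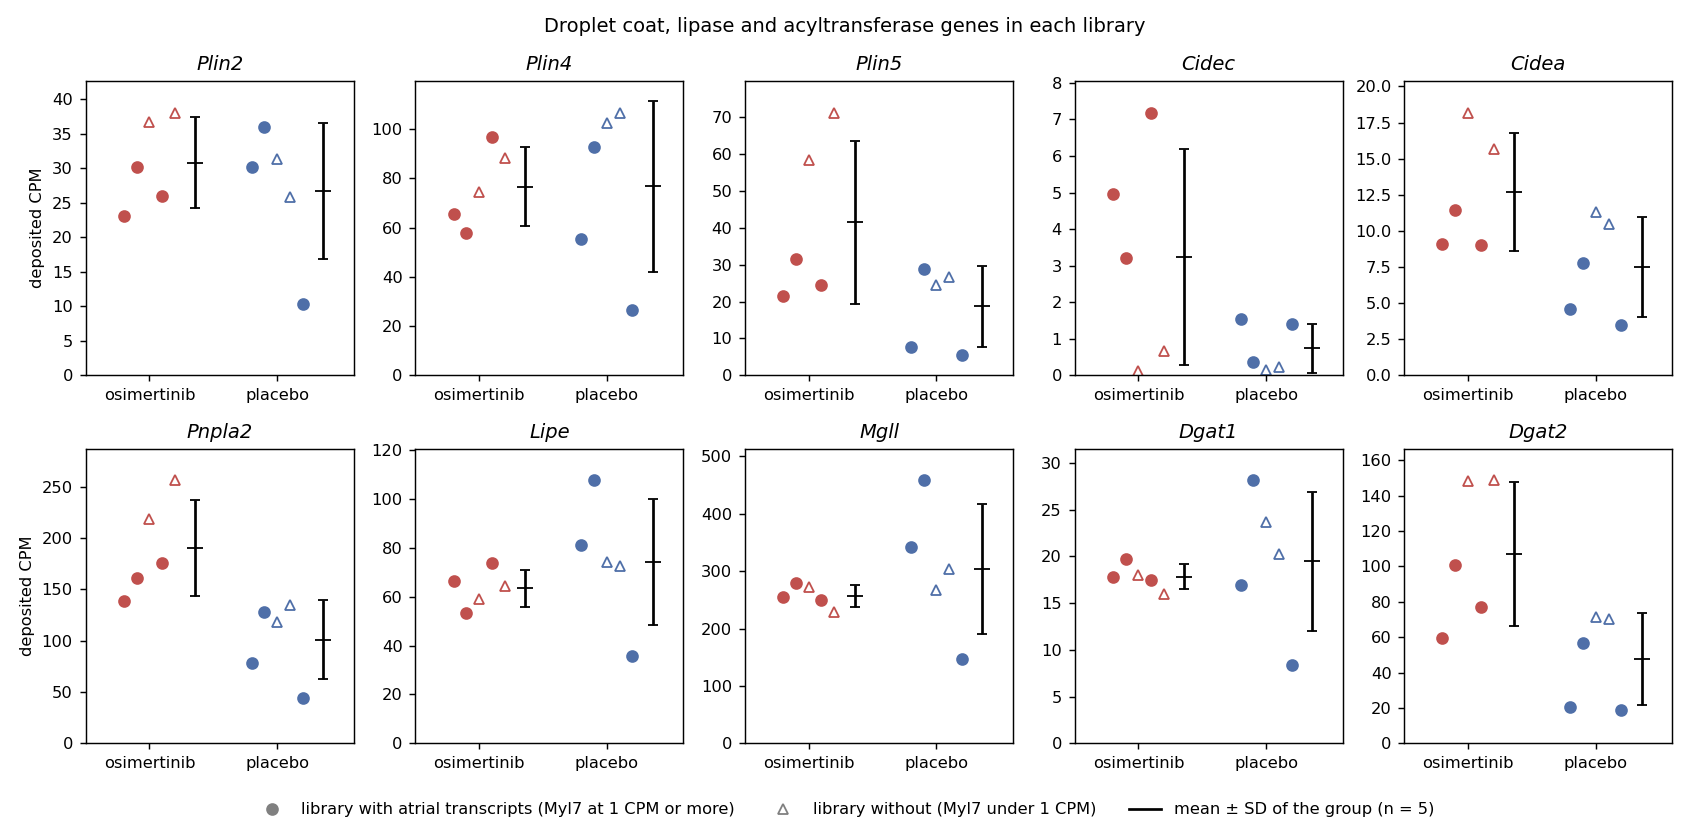
Deposited CPM of the 10 genes, 1 panel each, with osimertinib libraries on the left and placebo libraries on the right; filled circles are libraries with at least 1 CPM of Myl7, open triangles those below, and bars are mean ± SD (n = 5 each). Plin5, Pnpla2 and Dgat2 were highest in the 2 osimertinib libraries drawn as triangles, and Cidec was lowest in one of those.

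Pnpla2, on chromosome 7 at 141455198 to 141460743 (plus strand, GRCm38), encodes ATGL, which starts triglyceride breakdown. Osimertinib libraries 1 to 5 held 139, 161, 219, 176 and 256 CPM, against 78.0, 128, 119, 135 and 44.4 CPM in placebo libraries 1 to 5. Every osimertinib library was above every placebo library, which was so for 5.33% of tested genes. The log2 fold change in deposited CPM was 0.99 ± 0.33 (SE; limma adjusted p = 0.053). In rescaled CPM the means were 172 ± 48.5 in osimertinib libraries and 105 ± 26.6 in placebo libraries (SD, n = 5 each), with a log2 fold change of 0.70 ± 0.21 (limma adjusted p = 0.0349). All 5 osimertinib libraries lay above the placebo mean, but the groups overlapped on this scale. Osimertinib libraries 1 and 2, at 141 and 132 rescaled CPM, lay below placebo library 4, at 145. The rescaled call was lost without osimertinib library 3 (0.66, adjusted p = 0.0904) or 5 (0.56, 0.0856), or without placebo library 1 (0.59, 0.0818), 2 (0.68, 0.0793) or 5 (0.69, 0.0561).

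Lipe, on chromosome 7 at 25379527 to 25398710 (minus strand), encodes hormone-sensitive lipase. Lipe had a negative log2 fold change on both scales and was called lower in rescaled CPM only. Rescaled values were 67.6, 43.7, 51.3, 62.2 and 62.8 CPM in osimertinib libraries, against 76.7, 80.0, 71.1, 78.6 and 78.8 CPM in placebo libraries. The groups did not overlap, which was so for 6.82% of tested genes in this direction. Lipe fell with a log2 fold change of -0.43 ± 0.12 (SE; limma adjusted p = 0.0334). In deposited CPM the means were 63.4 ± 7.66 in osimertinib libraries and 74.2 ± 25.7 in placebo libraries (SD, n = 5 each), and the groups overlapped, with 35.8 CPM in placebo library 5. The deposited log2 fold change was -0.15 ± 0.32 (limma adjusted p = 0.834). The rescaled call was lost in 5 of 10 fits that left out 1 library, without osimertinib library 2, 3 or 5 or placebo library 1 or 2, with adjusted p up to 0.0909.

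Mgll, on chromosome 6 at 88724412 to 88828360 (plus strand), encodes monoglyceride lipase, which also breaks down an endocannabinoid. Rescaled values were 260, 229, 235, 211 and 223 CPM in osimertinib libraries, against 324, 341, 256, 329 and 324 CPM in placebo libraries. Placebo library 3 lay just below osimertinib library 1, and the other placebo libraries were above every osimertinib library. Mgll had a log2 fold change of -0.44 ± 0.12 in rescaled CPM (SE; limma adjusted p = 0.0306) and -0.15 ± 0.33 in deposited CPM (limma adjusted p = 0.834). The rescaled call was lost in 6 of 10 fits that left out 1 library, without osimertinib library 2, 3, 4 or 5 or placebo library 1 or 2, with adjusted p up to 0.0761. Unnamed genes of the same strand overlap Mgll in the annotation, so reads may be shared between them.

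A ratio of 2 genes within a library depends on no scaling. The ratio of Lipe to Pnpla2 was 0.478, 0.331, 0.270, 0.419 and 0.252 in osimertinib libraries, against 1.04, 0.841, 0.625, 0.540 and 0.807 in placebo libraries. Every osimertinib library was below every placebo library. The log2 ratio was lower by a difference of -1.14 (two-sided exact permutation test, p = 0.00794, the smallest that 5 against 5 can give, and adjusted p = 0.0397 over the 5 ratios tested). The difference was -1.14 within the 6 libraries with atrial transcripts and -1.16 within the 4 without. Leaving out 1 library at a time gave -1.27 to -1.03, with adjusted p between 0.0265 and 0.0794. With 1 library fewer, the smallest p that the test can give is larger.

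Of the partners of ATGL, its activator Abhd5 rose in rescaled CPM. Abhd5 averaged 18.4 ± 4.26 rescaled CPM in osimertinib libraries and 12.8 ± 1.34 in placebo libraries (SD, n = 5 each), with a log2 fold change of 0.48 ± 0.15 (limma adjusted p = 0.0451). G0s2, its inhibitor, had a log2 fold change of 0.50 ± 0.22 in rescaled CPM (limma adjusted p = 0.111), and Hilpda, another inhibitor, 0.21 ± 0.17 (limma adjusted p = 0.395). The ratio of Pnpla2 to G0s2 was 8.92, 6.02, 8.55, 9.29 and 8.81 in osimertinib libraries, against 6.64, 7.68, 6.56, 6.43 and 9.10 in placebo libraries. These ranges overlapped, and the log2 difference was 0.19 (two-sided exact permutation test, p = 0.222, adjusted p = 0.278). The log2 ratio of Pnpla2 to Abhd5 differed by 0.21, also with overlap (two-sided exact permutation test, p = 0.365).

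**Figure D2:**
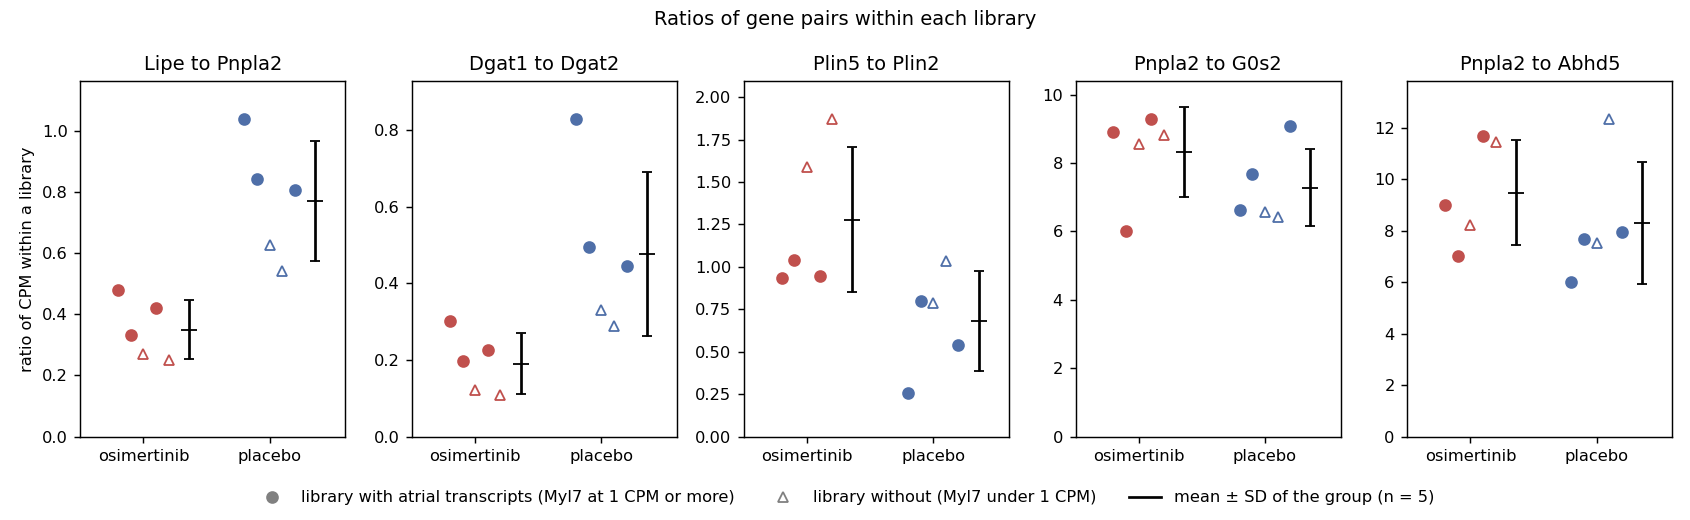
Within-library ratios of 5 gene pairs, osimertinib libraries on the left of each panel and placebo libraries on the right; points are libraries and bars are mean ± SD (n = 5 each). Lipe to Pnpla2 did not overlap between groups, Dgat1 to Dgat2 and Plin5 to Plin2 overlapped in part, and Pnpla2 to G0s2 and Pnpla2 to Abhd5 overlapped.

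Dgat2, on chromosome 7 at 99153658 to 99182719 (minus strand), encodes the acyltransferase best known, in liver and fat, for using newly made fatty acids, and it rose in deposited CPM. Its deposited values were 59.3, 101, 148, 77.2 and 149 CPM in osimertinib libraries, against 20.4, 56.9, 71.5, 70.3 and 18.9 CPM in placebo libraries. Only osimertinib library 1 fell inside the placebo range. The log2 fold change was 1.29 ± 0.35 in deposited CPM (SE; limma adjusted p = 0.0146) and 1.01 ± 0.35 in rescaled CPM (limma adjusted p = 0.0587). The deposited call was lost without osimertinib library 3 (1.15, adjusted p = 0.0644) or 5 (1.15, 0.0567), or without placebo library 1 (1.05, 0.0818) or 5 (1.02, 0.0692).

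Dgat1, on chromosome 15 at 76502015 to 76511953 (minus strand), did not follow Dgat2. Rescaled values were 18.2, 16.2, 15.6, 14.7 and 15.6 CPM in osimertinib libraries, against 16.0, 20.9, 22.7, 21.8 and 18.5 CPM in placebo libraries. Placebo library 1 lay among the osimertinib libraries and the other four were above them. Dgat1 had a log2 fold change of -0.30 ± 0.11 in rescaled CPM (SE; limma adjusted p = 0.0755) and -0.02 ± 0.31 in deposited CPM (limma adjusted p = 0.975). The ratio of Dgat1 to Dgat2 was 0.3, 0.196, 0.122, 0.226 and 0.108 in osimertinib libraries, against 0.829, 0.494, 0.331, 0.287 and 0.444 in placebo libraries. Placebo library 4 alone lay within the osimertinib range, and the log2 ratio differed by -1.33 (two-sided exact permutation test, p = 0.0159, adjusted p = 0.0397). The difference was -1.26 within the 6 libraries with atrial transcripts and -1.43 within the 4 without, and -1.52 to -1.10 with 1 library left out, with adjusted p between 0.0265 and 0.0794.

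Plin5, on chromosome 17 at 56111601 to 56117596 (minus strand), encodes the perilipin that in heart holds ATGL at the droplet. Its deposited values were 21.6, 31.5, 58.3, 24.6 and 71.1 CPM in osimertinib libraries, against 7.75, 28.7, 24.6, 26.6 and 5.54 CPM in placebo libraries. Osimertinib libraries 3 and 5, which lacked atrial transcripts, stood well above the rest, and placebo libraries 1 and 5 were the lowest. Plin5 had a log2 fold change of 1.25 ± 0.35 in deposited CPM (SE; limma adjusted p = 0.0205) and 0.97 ± 0.40 in rescaled CPM (limma adjusted p = 0.0954). The deposited call was lost without osimertinib library 3 (1.09, adjusted p = 0.0746) or 5 (1.01, 0.0914), or without placebo library 1 (1.01, 0.0849) or 5 (0.90, 0.130).

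Plin2, on chromosome 4 at 86648386 to 86670060 (minus strand), is the perilipin found in most cell types, and its protein is stable only on droplets. It held 23.0, 30.2, 36.7, 26.0 and 38.0 deposited CPM in osimertinib libraries, against 30.1, 36.0, 31.3, 25.8 and 10.3 CPM in placebo libraries. The ranges lay over each other apart from placebo library 5. Its log2 fold change was 0.29 ± 0.32 in deposited CPM (SE; limma adjusted p = 0.657) and 0.01 ± 0.15 in rescaled CPM (limma adjusted p = 0.962). The ratio of Plin5 to Plin2 was 0.937, 1.04, 1.59, 0.945 and 1.87 in osimertinib libraries, against 0.257, 0.799, 0.785, 1.03 and 0.539 in placebo libraries. Only placebo library 4 reached the osimertinib range. The log2 ratio differed by 0.99 (two-sided exact permutation test, p = 0.0238, adjusted p = 0.0397). It differed by 1.02 within the 6 libraries with atrial transcripts, by 0.94 within the 4 without, and by 0.67 to 1.17 with 1 library left out, with adjusted p between 0.0265 and 0.0794.

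Plin4 lies beside Plin5 on chromosome 17, at 56100591 to 56109803 on the same strand, with 1797 bases between them, and it encodes a perilipin of fat, heart and skeletal muscle. Rescaled values were 66.7, 47.4, 64.4, 81.8 and 86.0 CPM in osimertinib libraries, against 52.6, 68.9, 98.1, 115 and 58.1 CPM in placebo libraries. The groups overlapped over most of their range. The log2 fold change was -0.15 ± 0.23 in rescaled CPM (SE; limma adjusted p = 0.669) and 0.14 ± 0.34 in deposited CPM (limma adjusted p = 0.857), so its sign depended on the scale. The neighbouring perilipin genes thus gave different values. Hdgfl2 overlaps Plin4 on the opposite strand, and the study's design text describes strand-specific libraries.

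**Figure D3:**
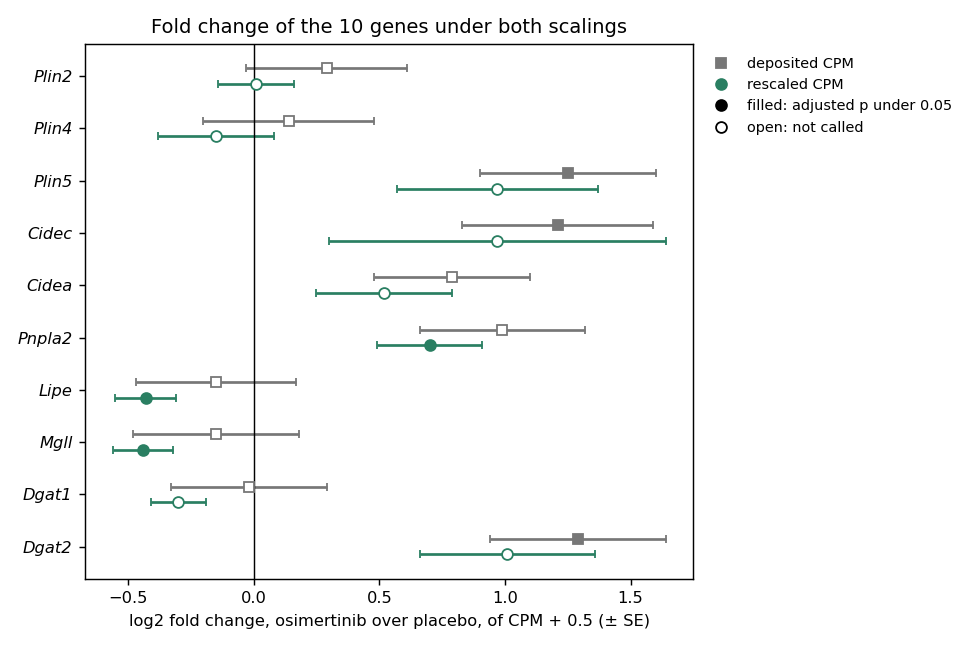
Log2 fold change (osimertinib over placebo) ± SE of the 10 genes on deposited and on rescaled CPM; filled symbols have a limma adjusted p under 0.05. Rescaling lowered every estimate, and the filled symbols are Plin5, Cidec and Dgat2 in deposited CPM and Pnpla2, Lipe and Mgll in rescaled CPM.

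Cidec, on chromosome 6 at 113424634 to 113435760 (minus strand), followed the fat-cell genes from library to library. It held 4.97, 3.22, 0.111, 7.19 and 0.665 deposited CPM in osimertinib libraries, against 1.53, 0.378, 0.159, 0.243 and 1.41 CPM in placebo libraries. Adipoq held 3.74, 1.49, 0.0553, 7.13 and 0.0554 CPM in osimertinib libraries, against 1.38, 0.504, 0.0529, 0.0607 and 1.92 CPM in placebo libraries. The 5 libraries with at least 1 CPM of Cidec were those with at least 1 CPM of Adipoq, and all of them held atrial transcripts. Plin1 held 1.69, 0.990, 0.0553, 3.68 and 0.111 CPM in osimertinib libraries, against 1.14, 0.189, 0.0529, 0 and 0.422 CPM in placebo libraries. In deposited CPM osimertinib libraries 1 and 4 were the highest in all 3 genes. In rescaled CPM Adipoq held 3.81 CPM in osimertinib library 1, below the 4.23 CPM of placebo library 5. The single-library counts were small: 1 read of Adipoq in osimertinib libraries 3 and 5 and in placebo libraries 3 and 4.

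Cidec averaged 3.23 ± 2.96 deposited CPM in osimertinib libraries and 0.743 ± 0.668 in placebo libraries (SD, n = 5 each). It had a log2 fold change of 1.21 ± 0.38 in deposited CPM (SE, limma adjusted p = 0.039) and 0.97 ± 0.67 in rescaled CPM (limma adjusted p = 0.312). A gene's own spread counted little in the deposited fit (prior degrees of freedom 72.9), so that SE came mostly from other genes. The deposited value depended on the amount added before taking logs: it was 1.51 ± 0.59 with 0.1 CPM added (limma adjusted p = 0.115) and 0.75 ± 0.20 with 2 CPM added (0.00763). Only 3 of 5 osimertinib libraries were above the placebo mean. The deposited call was lost without osimertinib library 1 (0.94, adjusted p = 0.0662) or 4 (0.82, 0.137), or without placebo library 2 (1.13, 0.130) or 5 (1.41, 0.131). The summed 7 fat-tissue markers were 29.2, 12.6, 1.49, 43.5 and 2.94 CPM in osimertinib libraries, against 19.3, 3.03, 1.48, 0.607 and 17.3 CPM in placebo libraries. They overlapped (mean difference 9.58 CPM, two-sided exact permutation test, p = 0.357). The difference was 3.19 CPM without osimertinib library 4, the low end of a range up to 13.7 CPM with 1 library left out. In rescaled CPM it was 4.03 (two-sided exact permutation test, p = 0.698), and the highest sum, 38.1, stood in placebo library 5. Among the 4 libraries without atrial transcripts, Cidec had 2 and 12 reads in osimertinib libraries 3 and 5, against 3 and 4 reads in placebo libraries 3 and 4. With the level of Adipoq and Cfd, another fat-cell gene, as a covariate, the rescaled log2 fold change of Cidec was 0.52 ± 0.22 (limma adjusted p = 0.0797).

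**Figure D4:**
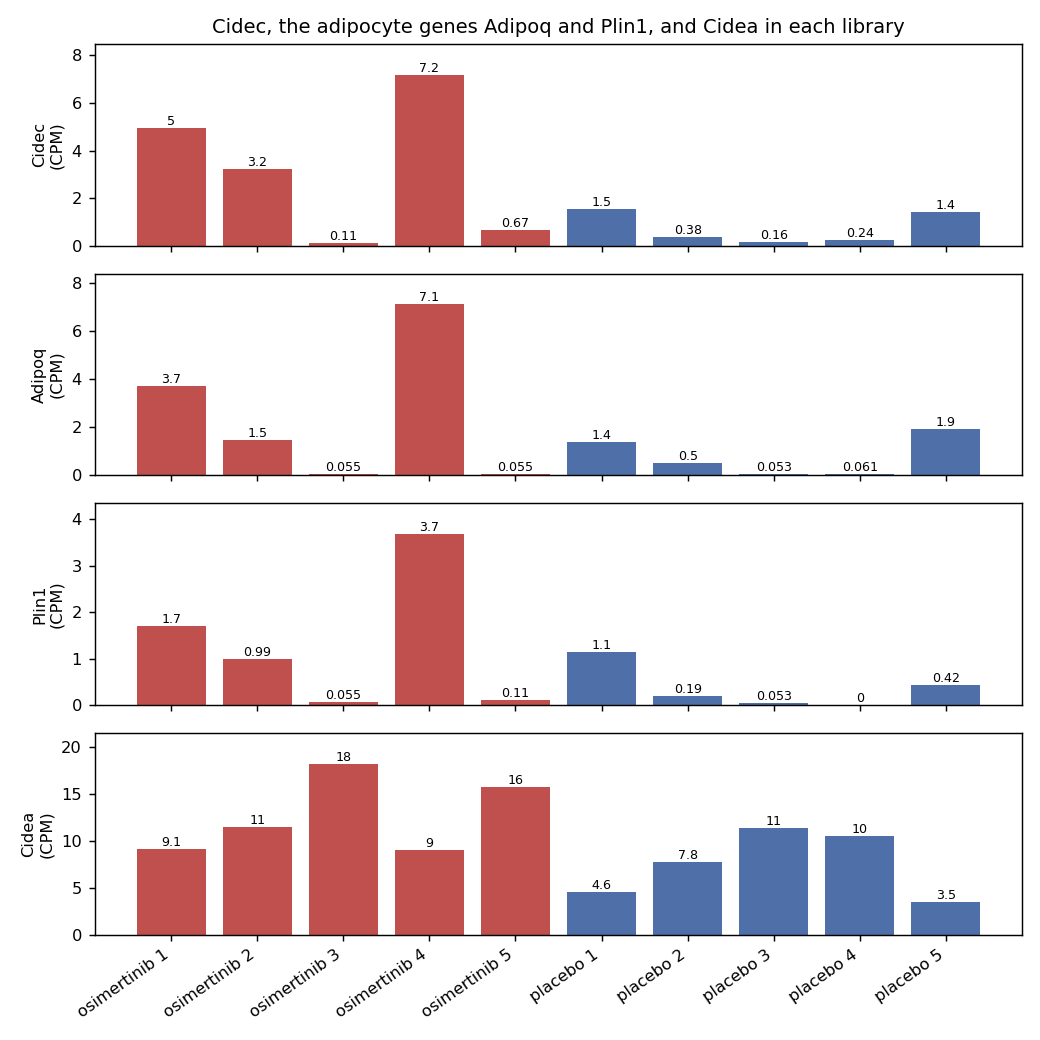
Deposited CPM of Cidec, Adipoq, Plin1 and Cidea in each library, osimertinib libraries 1 to 5 left of placebo libraries 1 to 5. Cidec, Adipoq and Plin1 were highest in osimertinib library 4, whereas Cidea was highest in osimertinib libraries 3 and 5, which each held 1 read of Adipoq.

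Cidea did not follow the fat-cell genes. It lies on chromosome 18 at 67343604 to 67367785 (plus strand). It held 9.11, 11.5, 18.2, 9.03 and 15.7 deposited CPM in osimertinib libraries, against 4.59, 7.75, 11.3, 10.5 and 3.47 CPM in placebo libraries. Its highest values stood in osimertinib libraries 3 and 5, and the groups overlapped. The log2 fold change was 0.79 ± 0.31 in deposited CPM (SE; limma adjusted p = 0.115) and 0.52 ± 0.27 in rescaled CPM (limma adjusted p = 0.173). Of the 4 genes listed as brown fat markers, Ucp1, Elovl3 and Otop1 had at most 3 reads in any library. Dio2, the fourth, which makes active thyroid hormone, held 1.61 to 6.84 deposited CPM in osimertinib libraries, against 1.03 to 7.25 CPM in placebo libraries.

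Other tissue in the libraries was measured beside these results. In rescaled CPM with the fat-cell genes as a covariate, 4 of the 10 genes rose and 2 fell, beside 20% of all tested genes called higher and 16.5% called lower. The 4 were Plin5 (1.22 ± 0.20, adjusted p = 0.000798), Cidea (0.65 ± 0.19, 0.0172), Pnpla2 (0.80 ± 0.16, 0.00201) and Dgat2 (1.20 ± 0.22, 0.00143), and the 2 were Lipe (-0.46, 0.011) and Mgll (-0.45, 0.01), all as log2 fold change with limma adjusted p. With atrial genes as the covariate the same 6 genes were called in the same directions, beside 21.5% called higher and 17.6% called lower, and Plin5 had a log2 fold change of 1.23 ± 0.17 (limma adjusted p = 0.000182). These fits called more of all genes too, so the members' count rose along with that of all genes. Nppa, part of the atrial covariate, held 1496 rescaled CPM in osimertinib library 3, where Myl7 was below 1 CPM. It was itself called higher in deposited CPM (1.19 ± 0.35, limma adjusted p = 0.0283), though not in rescaled CPM (0.90 ± 0.31, 0.0543). The atrial covariate thus did not measure atrial tissue alone.

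The 4 libraries without atrial transcripts were also compared alone, 2 osimertinib against 2 placebo, a choice made after seeing the data. In rescaled CPM 4 genes rose, beside 15.5% of all tested genes: Plin5 (log2 fold change 1.17, limma adjusted p = 0.00291), Cidea (0.47, 0.0324), Pnpla2 (0.76, 0.014) and Dgat2 (0.91, 0.00233). Plin4 (-0.51, 0.0441) and Dgat1 (-0.50, 0.0202) fell, beside 12.9% of all tested genes. Plin5 averaged 59.9 CPM in osimertinib libraries and 26.2 CPM in placebo libraries there. In the 6 libraries with atrial transcripts, 3 against 3, it averaged 22.8 CPM in osimertinib libraries and 13.6 CPM in placebo libraries (limma adjusted p = 0.111). In those 6, Pnpla2 (0.67, limma adjusted p = 0.025) and Dgat2 (1.07, 0.0409) rose, beside 7.42% of all tested genes. Pnpla2 and Dgat2 were thus called higher in both sets, which are parts of the same 10 libraries and so no independent check. With all 10 libraries Dgat2 was not called in rescaled CPM (limma adjusted p = 0.0587). Lipe had a log2 fold change of -0.46 with atrial transcripts (limma adjusted p = 0.11) and -0.39 without (0.0604), and Mgll -0.50 (0.0588) and -0.34 (0.119). Whether the 2 sets differed was not tested.

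Markers of ventricular cell types were read beside these results. Of 8 cardiomyocyte markers, 5 rose in deposited CPM and 2 (Actc1 and Pln) in rescaled CPM, and their median log2 fold change was 1.08 in deposited CPM and 0.80 in rescaled CPM. Summed endothelial markers were 1073 to 1372 rescaled CPM in osimertinib libraries, against 1216 to 1854 in placebo libraries, and Tie1 and Egfl7 fell in rescaled CPM; the median log2 fold change of the 6 endothelial markers was 0.06 in deposited CPM and -0.22 in rescaled CPM. All 6 fibroblast markers (median 0.68 in deposited CPM and 0.39 in rescaled CPM) and all 6 macrophage markers (0.55 and 0.26) had positive log2 fold changes on both scales, and of these Adgre1 rose in rescaled CPM. The 6 mural markers had medians of 0.32 and 0.03. Beside these calls, 6.62% of all tested genes were higher in deposited CPM, and 10.4% higher and 10.5% lower in rescaled CPM. The part that cell makeup has in the values of the 10 genes was not tested.

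Per kilobase of transcript, in rescaled CPM, Pnpla2 (65.6 ± 18.5) and Mgll (59.9 ± 4.74) led the osimertinib libraries, followed by Dgat2 (42.6 ± 16.9), Plin5 (19.0 ± 10.8), Lipe (15.5 ± 2.63), Plin2 (14.7 ± 3.40), Plin4 (12.0 ± 2.67), Cidea (10.3 ± 3.39), Dgat1 (8.51 ± 0.683) and Cidec (1.69 ± 1.53) (mean ± SD, n = 5). In placebo libraries Mgll (81.4 ± 8.65) led, followed by Pnpla2 (40.1 ± 10.1), Dgat2 (21.9 ± 10.1), Lipe (20.7 ± 0.948), Plin2 (14.4 ± 1.48), Plin4 (13.7 ± 4.69), Dgat1 (10.6 ± 1.44), Plin5 (9.39 ± 4.39), Cidea (7.16 ± 2.75) and Cidec (0.610 ± 0.734) (mean ± SD, n = 5). Among the member lipases, the highest mean was thus that of Pnpla2 with osimertinib and that of Mgll with placebo. In osimertinib libraries Pnpla2 and Mgll differed by less than the larger of their SDs, as did each pair of neighbours from Plin5 to Dgat1. In placebo libraries so did Dgat2 and Lipe, and each pair of neighbours from Plin2 to Cidea.

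The rest of the pathway was described by 5 lists, with 65 tested genes in all. In deposited CPM 9 of them rose and 0 fell, beside 6.62% of all tested genes higher and 0.13% lower (limma). Lpin3 alone was lower there at an unadjusted p under 0.05. In rescaled CPM 12 rose and 8 fell, beside 10.4% of all tested genes higher and 10.5% lower, to which the share that fell was close. Of 13 other droplet genes, 1 rose in deposited CPM (Fitm2) and 3 in rescaled CPM, where the list's median log2 fold change was 0.32. The 3 were Fitm2, needed for droplets to bud from the endoplasmic reticulum (0.73 ± 0.23, limma adjusted p = 0.0437), Ldaf1, a partner of seipin at droplet birth (0.55 ± 0.14, 0.0221), and the lipid transporter Vps13c (0.62 ± 0.19, 0.0391). Ldaf1 averaged 15.3 ± 2.62 CPM in osimertinib libraries and 10.2 ± 1.43 CPM in placebo libraries (SD, n = 5 each), with no overlap, as for 5.72% of tested genes in this direction.

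Of 11 further lipolysis genes, Pnpla8 and Ces1d rose in deposited CPM, and in rescaled CPM 2 rose (Abhd5 and Pnpla8) and 2 fell (Pnpla6 and Pnpla7), with a median log2 fold change of 0.10. Over all tested genes 6.62% were called higher in deposited CPM. In rescaled CPM 10.4% were called higher and 10.5% lower, so each direction lay within 1 gene of that share. Pnpla8, a phospholipase of mitochondria and peroxisomes, averaged 26.3 ± 2.83 rescaled CPM in osimertinib libraries and 15.8 ± 0.533 in placebo libraries (SD, n = 5 each). Its groups did not overlap, which was so for 5.72% of tested genes in this direction. The log2 fold change of Pnpla8 was 0.71 ± 0.10 (limma adjusted p = 0.00867). Pnpla6 (-0.50 ± 0.16, limma adjusted p = 0.0487) and Pnpla7 (-0.37 ± 0.11, 0.0412) are lysophospholipases, not triglyceride lipases.

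Of 19 genes of triglyceride synthesis, Agpat2 and Gpd1 rose in deposited CPM, and 6 rose and 2 fell in rescaled CPM, with a median log2 fold change of 0.32. Over all tested genes 6.62% were called higher in deposited CPM. In rescaled CPM 10.4% were called higher and 10.5% lower, the second of which is the share that fell here. Gpd1, a glycerol-3-phosphate dehydrogenase, had a log2 fold change of 0.75 ± 0.24 (limma adjusted p = 0.0429), and its relative Gpd1l 0.51 ± 0.12 (0.0182). The acyltransferases Gpam (0.68 ± 0.23, limma adjusted p = 0.049) and Agpat2 (0.75 ± 0.20, 0.0286), which add the first acyl groups to that backbone, rose, as did the fatty-acid activator Acsl1 (0.62 ± 0.19, 0.0409) and the phosphatidate phosphatase Lpin1 (0.66 ± 0.19, 0.0326). The other lipins fell, Lpin2 by a log2 fold change of -0.45 ± 0.13 (limma adjusted p = 0.035) and Lpin3 by -0.95 ± 0.18 (0.0132). Lpin3 averaged 6.14 ± 1.48 rescaled CPM in osimertinib libraries and 12.3 ± 2.71 in placebo libraries (SD, n = 5 each). Its groups did not overlap, which was so for 6.82% of tested genes in this direction. The lipins thus split in direction.

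Of 11 genes that bring fatty acids to the cell, 3 rose in deposited CPM (Lpl, Lmf1 and Fabp3), and in rescaled CPM 1 rose (Lmf1) and 3 fell, with a median log2 fold change of 0.07. Over all tested genes 6.62% were called higher in deposited CPM, and 10.4% higher and 10.5% lower in rescaled CPM. The 3 that fell are known from capillary endothelium, whose summed markers are given above: Gpihbp1, which anchors lipoprotein lipase on capillaries (-0.73 ± 0.14, limma adjusted p = 0.0138), and the fatty-acid carriers Fabp4 (-0.73 ± 0.17, 0.0181) and Fabp5 (-0.43 ± 0.12, 0.0286). Gpihbp1 averaged 113 ± 22.2 rescaled CPM in osimertinib libraries and 186 ± 24.2 in placebo libraries (SD, n = 5 each). Lpl, the lipase itself, averaged 1637 ± 638 rescaled CPM in osimertinib libraries and 907 ± 359 in placebo libraries (SD, n = 5 each), with a log2 fold change of 1.15 ± 0.34 in deposited CPM (limma adjusted p = 0.0284) and 0.86 ± 0.32 in rescaled CPM (0.0727). The muscle carrier Fabp3 had 1.42 ± 0.37 in deposited CPM (limma adjusted p = 0.0112) and 1.14 ± 0.43 in rescaled CPM (0.0732). The transporter Cd36 had a rescaled log2 fold change of 0.01 ± 0.18 (limma adjusted p = 0.962), and Angptl4, an inhibitor of lipoprotein lipase, 0.14 ± 0.46 (0.854).

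Of 11 regulators, Rxrg rose in deposited CPM and Mlxipl, which encodes the glucose-sensing factor ChREBP, fell in rescaled CPM (-0.62 ± 0.17, limma adjusted p = 0.0306), with a median log2 fold change of -0.07. The shares of all tested genes were 6.62% higher in deposited CPM and 10.5% lower in rescaled CPM, to which 1 gene of 11 is close. Ppara, the nuclear receptor of fatty-acid use, held 0.141 to 1.13 CPM and was not tested. Pparg had a rescaled log2 fold change of -0.30 ± 0.16 (limma adjusted p = 0.191), and its coactivator gene Ppargc1a 0.65 ± 0.32 (0.154). Of the 20 pathway genes called in rescaled CPM, Pnpla8, Lpin3 and Gpihbp1 were called in 10 of 10 fits with 1 library left out. Gpam and Vps13c kept their calls in 2 of 10 such fits, and Fitm2, Abhd5, Pnpla6, Pnpla7 and Gpd1 in 3. Acsl1 and Lpin2 kept theirs in 4, and Lpin1 and Lmf1 in 5. Ldaf1, Fabp5 and Mlxipl were called in 6, Agpat2 in 7, Gpd1l in 8 and Fabp4 in 9.

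**Figure D5:**
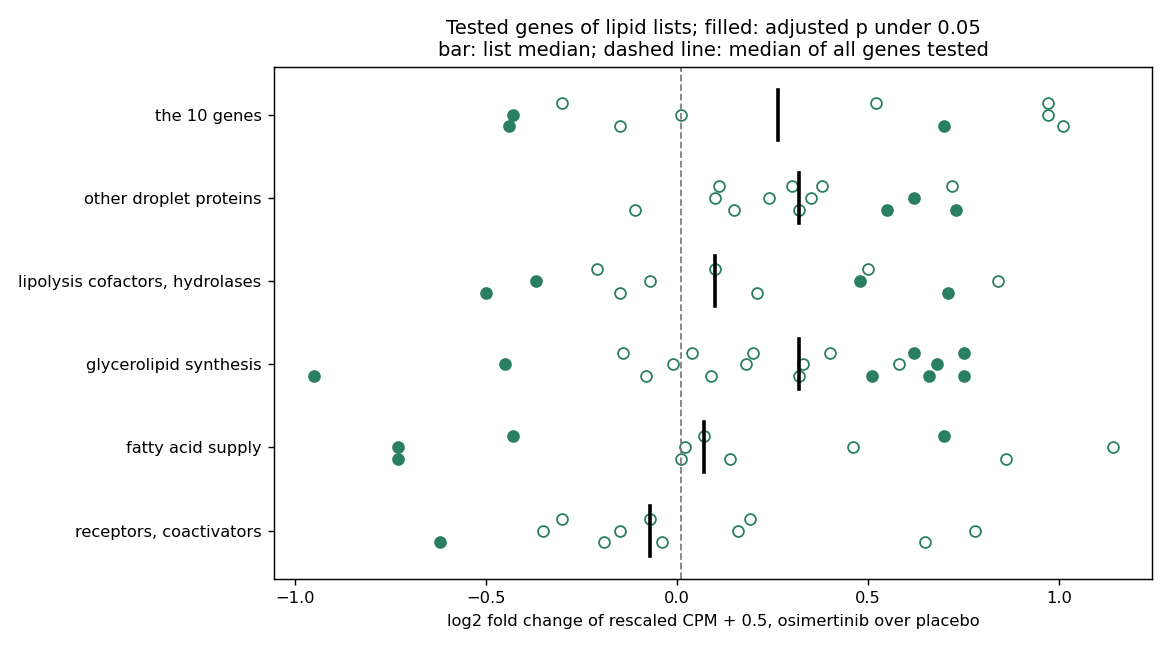
Rescaled log2 fold change (osimertinib over placebo) of each tested gene in the 10 members and the 5 pathway lists; the bar is the list's median and the dashed line the median of all tested genes. Most genes of the droplet list lie above the dashed line, each other list has genes on both sides of it, and Lpin3, at -0.95, is the lowest of the synthesis list.

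The genes whose levels varied most like a member's within groups were ranked by Pearson's r over the 10 libraries, among 11718 genes, as a description. For Dgat2 they were Ap1b1 (r = 0.997), Mrps15 (0.992) and Lrrc24 (0.991), and for Plin5 Smap2 (0.980), Bcat2 (0.978) and Echdc3 (0.975). For Pnpla2 they were Nudt3 (0.978), Mcat (0.976) and Tcea3 (0.972), and for Cidea Mrps34 (0.986), Mrps9 (0.986) and Rnf128 (0.984). For Cidec they were Pold3, Lmntd1 and Cyp2e1 (each 0.979). For Mgll they were Cd300lg (0.965), Jrk (0.910) and Arhgap1 (0.898), and for Lipe Nrxn2 (0.895), Parn (0.890) and Pdgfrb (0.889). For Dgat1 they were Slc9a9 (0.898), Sae1 (0.881) and Mief2 (0.865). For Plin2 they were Psma3 (0.964), Tma16 (0.954) and Msl3 (0.949), and for Plin4 Polr2k (0.937), Ercc1 (0.925) and Mark1 (0.913). These libraries share depth and tissue makeup, which enter every r.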

How the data were processed

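The data were CPM values deposited by the authors, read counts scaled so that each library adds up to 1000000, with no factor between libraries. Per the design text in the labels, reads were processed with STAR and RSEM on GRCm38 and tested with limma and voom. The submitters' processing notes instead name cutadapt 1.9, HISAT2 2.0.4, StringTie 1.3.4d, DESeq2 and a human build, so the build is not settled here; coordinates are GENCODE's on GRCm38. Read depth was estimated by taking the commonest CPM value above 0 of each library as 1 read. On that basis 90.74% to 93.35% of values under 200 reads came out whole within 0.01 of a read, and all came out in hundredths. CPM keeps no fixed amount of RNA, so a gene's value falls where mitochondrial reads rise.

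Tests were limma 3.58.1 with a trended prior in R 4.3.3, on log2(CPM + 0.5) of the 12350 genes. A fold change on this scale understates that of low genes. P-values were Benjamini-Hochberg adjusted over all 12350 genes. Only the rescaled fit was tried on simulated counts, which had the same spread setting for every gene. The simulated libraries did not differ in mitochondrial share or tissue makeup, so the trial gives no error rate for these data. The prior degrees of freedom were 72.9 in deposited and 4.45 in rescaled CPM, so a gene's own spread counted little in the deposited fit. Ratios of 2 genes were tested by exact permutation over the 252 assignments of libraries. Covariates were the mean log2 level of Adipoq and Cfd, or of Myl7, Myl4, Sln, Nppa and Dkk3. Alternatives were other pseudocounts, filters, scalings, voom, a replicate block, and leaving out each library. The members and lists were chosen with earlier results of these data known. The text names all members, 11 partner genes by name, in each pathway list up to 5 further genes with the lowest p in rescaled CPM, and the 3 genes nearest to each member; other called genes were named after their values were seen. Sequences are from RefSeq promoters; no pair of libraries agreed within sampling noise.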

Additional observations from a re-analysis of the deposited data

Results flagged for a closer look

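Each group of 5 libraries was examined for a library far from the others, its gap divided by the group's range being above 0.71; 66 groups were examined and 2 stood out, and chance gives about 1 in 20 groups. Mgll in rescaled CPM was lowest in placebo library 3, at 256, against 324 to 341 in the other placebo libraries (gap share 0.802). The ratio of Pnpla2 to G0s2 was lowest in osimertinib library 2, at 6.02, against 8.55 to 9.29 in the other osimertinib libraries (gap share 0.773).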

How the results depend on the processing

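Of the 10 genes, 3 were called in deposited CPM. That count was 0 with no filter on low values, 0 in CPM without mitochondrially encoded genes, 0 in the 6 libraries with atrial transcripts, and 0 to 4 with 1 library left out. In rescaled CPM 3 were called, against 1 with no filter, 6 with the fat covariate, 6 with the atrial covariate, 6 in the 4 libraries without atrial transcripts, and 0 to 4 with 1 library left out. The pathway lists gave 9 calls in deposited and 20 in rescaled CPM. Over all genes, 833 calls in deposited CPM became 0 with no filter (3269 of 21622 at an unadjusted p under 0.05), 2654 after quantile normalization and 307 to 1126 with 1 library left out. The 2574 in rescaled CPM became 1263 with no filter, 4508 and 4839 with the fat and atrial covariates, and 512 to 2807 with 1 library left out. The causes were not tested.

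Signs turned where log2 fold changes were near 0. In deposited CPM with 1 library left out, Dgat1 ran between -0.29 and 0.13, Lipe -0.39 and 0.00, Mgll -0.39 and 0.02, Plin4 -0.20 and 0.30, and Plin2 -0.02 and 0.42. In rescaled CPM Plin2 ran between -0.10 and 0.09 and Plin4 -0.27 and 0.01. Deposited Plin4 was -0.37 without atrial libraries, -0.17 after quantile normalization and -0.12 without mitochondrial genes; Plin2 was -0.02 after quantile normalization and Dgat1 0.20 in atrial libraries. Rescaled Plin4 was 0.10 and Plin2 -0.14 in atrial libraries. Ratio differences with 1 library left out were -1.52 to -1.10 for Dgat1 to Dgat2, -1.27 to -1.03 for Lipe to Pnpla2 and 0.67 to 1.17 for Plin5 to Plin2. The summed brown fat markers differed by -0.226 CPM (two-sided exact permutation test, p = 0.833), and by -0.988 to 0.597 CPM with 1 library left out.

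Libraries of the 2 groups share replicate numbers. Same-numbered libraries correlated at 0.428, 0.245, 0.464, -0.339 and -0.162 in their deviations from group means. By that measure 2 of 5 osimertinib libraries were nearest to their own number. The values vary in sign, and tissue makeup enters them, so they cannot decide whether the numbers mark pairs. With the replicate block, 4 of the 10 genes were called in deposited CPM (Pnpla2 added) and 4 in rescaled CPM (Dgat2 added). Of all genes, 1320 were called in deposited CPM and 2949 in rescaled CPM. Depth limits Cidec, Adipoq and Plin1, which had few reads in several libraries.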
